A study of Mus musculus with 7 samples.

Results

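Transcripts of the mitochondrial respiratory chain were compared between d7 and d3 wound macrophages. The members were the genes whose symbol starts with Nduf, Uqcr, Cox4, Cox5, Cox6, Cox7 or Cox8, together with Sdha, Sdhb, Sdhc, Sdhd, Cyc1 and Cycs. Membership was set by name, and the members described one by one were picked by the size of their difference, their level or their role. The rule found 81 probe sets for 80 genes, among 30176 genes that have a probe set with a single symbol, and the probe set with the higher mean was kept where a gene had more than 1. Of the 80 genes, 58 encode structural subunits or cytochrome c, 8 are complex I assembly factors, 8 are tissue-restricted or hypoxia-linked isoforms and 6 are copies or pseudogenes of subunit genes.

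The macrophages came from polyvinyl alcohol sponges placed under the back skin of C57BL/6 mice and taken out on day 7 or day 3. Cells bearing CD11b were sorted for F4/80, 2 surface proteins of macrophages, and RNA of 4 d7 and 3 d3 samples was hybridized to 1 Affymetrix Mouse Transcriptome array each. The d7 samples carry the replicate numbers 5, 6, 7 and 8 and the d3 samples 1, 3 and 4, and values below are listed in that order. Both groups were wounded with no further treatment labelled, so day 3 is the earlier time and not an unwounded control, and cells drawn into a sponge stand in for those of a wound bed. The study's methods give young adult mice of both sexes for its experiments in general, while neither the age and sex behind each array nor pooling of animals is stated. The labels call the samples biological replicates.

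The respiratory chain passes electrons from NADH (complex I) and succinate (complex II) through ubiquinone to complex III, then through cytochrome c to complex IV, which reduces oxygen. Complexes I, III and IV pump protons, and the gradient they build drives ATP synthase. In macrophages, inflammatory activation is known to favor glycolysis and alternative activation to favor respiration. Nuclear genes encode most subunits, and mitochondrial DNA encodes a part of the core of complexes I, III and IV.

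All values are log2 levels of a probe set, and a difference is d7 minus d3. The array background, the highest value of an antigenomic control probe on any array, was 5.39. Of the 80 members, 73 had a mean above it, and the 7 at or under it were Cox8b, Cox6b2, Ndufa4l2, Cox8c, Cox7b2, Ndufa11b and Uqcrh-ps1. The macrophage genes Adgre1 (F4/80) and Itgam (CD11b) averaged 16.8 and 17.1. Of the 9 macrophage markers measured, Mrc1, the mannose receptor, passed the test (difference 1.42, limma adjusted p = 0.0263), and Mertk (0.44), Cd68 (0.33), Lyz2 (-0.08) and Fcgr1 (-0.37) did not pass but had groups that did not overlap. In the same samples 9 of 10 fibroblast markers and 9 of 10 measured T, NK and B cell markers lay at or under the background, Cd3e, Col1a1 and Col1a2 among them. The exceptions were Fn1, which averaged 17.1, and Cd79b, which averaged 6.37. Above the background were 1 of 7 dendritic cell markers, Batf3, and 2 of 6 endothelial markers, Pecam1 and Kdr. Of the 6 endothelial markers, 5 had a lower and 1 a higher d7 mean. Kdr had groups that did not overlap but did not pass (-1.09, limma adjusted p = 0.0567). In these bulk samples, fewer cells of a type and less RNA per cell cannot be told apart. Monocyte markers had a summed level of 16.3 to 16.6 on the d7 arrays, against 17.6 to 18.2 on the d3 arrays, and of the 8 measured none passed the test (7 had a lower d7 mean, as Ly6c2 with -2.02, adjusted p = 0.0865 with limma, and F13a1 a higher one, with 1.07, adjusted p = 0.142). Neutrophil markers summed to 12.9 to 13.8 on d7 and 13.8 to 14.1 on d3, with 6 of 12 at the background, Ly6g, Mpo and Elane among them, and 1, Retnlg, past the threshold (-4.85, adjusted p = 0.0432). Of these 12, 6 had a higher and 5 a lower d7 mean, and S100a8 differed by 0.13 and S100a9 by 0.14, both highest on d7 replicate 6. The part of these other cells in the results below was not tested.

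No respiratory chain gene passed the test between d7 and d3. With limma and Benjamini-Hochberg adjustment over all 65956 probe sets, 0 of 80 members were called at an adjusted p under 0.05, where 77 probe sets, or 0.117%, were called in all. The smallest adjusted p of a member was 0.413, for Ndufv3. At an unadjusted p under 0.05 there were 7 members, 4 with a higher and 3 with a lower d7 mean. Among the 73 members above the background that count was 6, or 8.22%, while 19.2% of the 11611 genes above the background reached it. Every d7 array lay on the same side of every d3 array in 6 of the 73, against 16.0% of those genes. The test of the study's methods, without adjustment, called 4 of 80 members (Ndufa5 and Sdhd higher, Ndufv3 and Ndufb4c lower). It called 3652 of all 65956 probe sets. After Benjamini-Hochberg it called 0 members and 13 probe sets.

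The differences were small in both directions. Of the 80 members, 38 had a higher d7 mean, 40 a lower one and 2 the same value on every array, and the median difference was -0.001 on the log2 scale. Differences ran from -0.31 (Ndufv3) to 0.44 (Ndufa9), so none reached 0.5, a size that 7.59% of the genes above the background exceeded. Among the members above the background, 61.6% differed by under 0.1 and 31.5% by 0.1 to 0.25, against 51.6% and 27.4% of the other genes. The 95% interval of the difference lay within a 2-fold change either way in 79 of 80 members. The exception was Ndufa9, with an interval of -0.35 to 1.23. It lay within 1.41-fold (0.5 on the log2 scale) in 91.8% of the members above the background and in 72.8% of all genes above it.

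**Figure D1:**
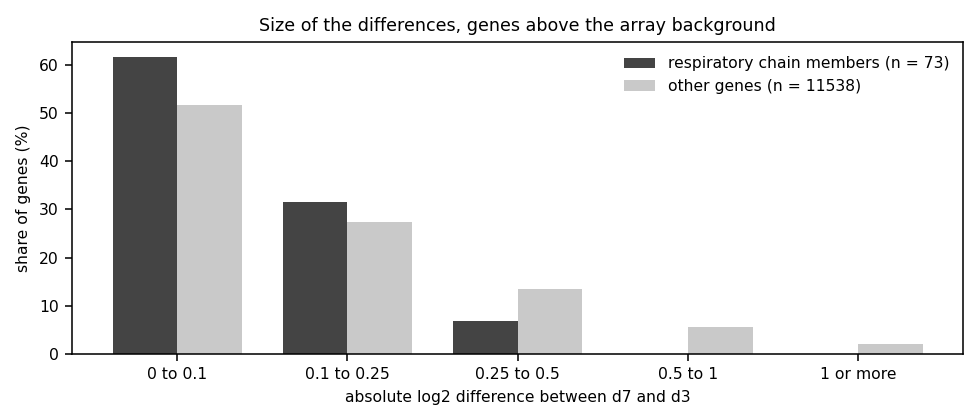
Share of genes (y axis, %) by absolute log2 difference between d7 and d3 (x axis), for the 73 respiratory chain members (dark bars) and the 11538 other genes (light bars) above the array background. No member falls in the bins from 0.5 upward, which hold 5.56% and 2.07% of the other genes.

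Ties limit what these intervals say. Ndufb2 and Ndufb5, both accessory subunits of complex I, were listed at 1 value on all 7 arrays (6.74 and 7.82), and 24 members shared 1 value on at least 4 arrays. Such values keep the spread of a probe set small, and their interval comes mostly from the spread shared across probe sets. Only 18 members had 7 different values. Of these, 4 (Ndufv3, Ndufa5, Ndufa4 and Uqcrq) reached an unadjusted p under 0.05, against 51.7% of the 2899 genes of that kind. Why values repeat is not given in the sources used here.

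Of the d3 samples, replicate 3 stood apart. The median level of its positive control probes was 9.78, where the remaining 6 arrays had 10.0 to 10.1. Of the 73 members above the background, 7 were lower on it by over 0.3 than on the mean of the other d3 arrays (Ndufs1, Ndufs8, Ndufa9, Ndufaf1, Sdha, Sdhb and Uqcrc1), and 2 were higher (Uqcrc2 and Cox7a2l). Deviations of that size were no more frequent among the members than among all genes above the background. Of those genes, 22.3% lay over the limit on that array and 12.3% were lower. On d3 replicate 1, 17.6% lay over the limit. Both values are given where leaving d3 replicate 3 out moved a difference of 0.1 or more that is named below by over 1.5 times. Exceptions are Ndufa6, Ndufaf4 and Ndufaf6, given over all arrays only, each with its highest d3 value on that array. Ndufa6 measured 6.98 on d3 replicate 3, against 6.65 and 6.80 on the other d3 arrays.

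Promoter stretches of 4 members are printed because the results below return to them. Ndufv3 and Ndufa5 had the smallest unadjusted p among structural subunits with a lower and a higher d7 mean. Sdhd is the subunit of complex II whose groups did not overlap, and Cycs is the sole cytochrome c gene among the members. Each is the 120 bases before a transcription start in RefSeq (GRCm38.p6), 5′ to 3′ on the gene's strand. Capitals mark matches, on either strand, to the core of NRF-1 (CGCANGCG) or of GABP, also called NRF-2 (CCGGAAG), 2 factors known to control many nuclear genes of respiration.
Ndufv3, chr17:31519995-31520114, plus strand: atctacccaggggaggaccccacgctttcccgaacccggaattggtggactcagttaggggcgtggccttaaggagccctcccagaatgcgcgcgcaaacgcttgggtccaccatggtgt
Ndufa5, chr6:24527691-24527810, minus strand: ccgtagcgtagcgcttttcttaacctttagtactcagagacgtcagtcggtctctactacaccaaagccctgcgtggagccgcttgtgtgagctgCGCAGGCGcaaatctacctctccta
Sdhd, chr9:50603850-50603969, minus strand: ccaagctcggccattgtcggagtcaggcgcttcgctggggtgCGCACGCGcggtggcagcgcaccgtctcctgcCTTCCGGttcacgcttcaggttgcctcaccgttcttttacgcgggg
Cycs, chr6:50566570-50566689, minus strand: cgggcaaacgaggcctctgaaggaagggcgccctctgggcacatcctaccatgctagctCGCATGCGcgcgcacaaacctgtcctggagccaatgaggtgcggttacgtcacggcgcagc
Ndufa5 has a second RefSeq start, whose window holds the same NRF-1 match. In the wider window of 250 bases before to 50 after a start, which 60 of the 80 members have, the NRF-1 core stood in 17 genes (28.3%), against 12.45% of 17491 protein-coding genes. The GABP core stood in 13 (21.7%, against 12.94%) and the core of YY1, AAGATGGCG, in 5 (8.3%, against 2.14%). The TATA box (TATAAA) and the CCAAT box were scored as well and were no more frequent in members (10.0%, against 14.8%, and 40.0%, against 42.31%). A gene was counted once for each core, CGCATGCG in Cycs reads the same on both strands, and a match is a run of letters, not a shown binding site.

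Complex I, the NADH dehydrogenase, had 32 measured subunits, with a median difference of -0.007 (13 higher, 17 lower, 2 equal). Its 6 measured core subunits, which include the carriers of the flavin and of iron-sulfur clusters, differed by -0.02 to 0.19. Ndufs1, the largest of the core subunits, measured 7.66, 7.66, 7.67 and 7.90 on d7 and 7.66, 7.27 and 7.66 on d3. Ndufs8 measured 9.65, 9.72, 9.65 and 9.65 on d7 and 9.65, 9.32 and 9.65 on d3. In both, d3 replicate 3 alone lay low and the other arrays overlapped (differences 0.19 and 0.13, adjusted p = 0.662 each, and 0.06 and 0.02 without that array). The other core subunits were flatter still, with differences of 0.03 for Ndufs3, -0.007 for Ndufs7, -0.007 for Ndufv2 and -0.02 for Ndufv1, the NADH-binding flavoprotein.

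Among the 26 accessory subunits of complex I, which surround and stabilize the core, Ndufv3 was the member nearest to the threshold. It measured 12.14, 12.02, 12.27 and 12.08 on d7, against 12.55, 12.42 and 12.36 on d3. All d7 arrays lay below all d3 arrays, with means of 12.13 ± 0.11 (SD, n = 4) on d7 and 12.44 ± 0.10 (SD, n = 3) on d3. The difference was -0.31 (SE 0.0749, 1.24-fold lower on d7, limma unadjusted p = 0.00664, adjusted p = 0.413). Ndufa5 lay the other way, at 8.38, 8.39, 8.48 and 8.67 on d7 and 8.22, 8.31 and 8.18 on d3. Its groups did not overlap (difference 0.24, 95% interval 0.04 to 0.45, adjusted p = 0.647). Ndufv3 had no match to the motif cores in the stretch shown above and Ndufa5 had 1.

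Ndufa9 had the largest difference and the widest interval of all members. It measured 13.35, 13.38, 13.54 and 13.51 on d7 and 13.62, 12.25 and 13.14 on d3. The 4 d7 arrays lay close together, and the d3 arrays spanned them on both sides, with d3 replicate 3 far below (difference 0.44, adjusted p = 0.662). Without d3 replicate 3 the difference was 0.06, and without d3 replicate 1 it was 0.75. Ndufa8 had non-overlapping groups by a narrow margin, at 10.03, 10.03, 10.03 and 10.14 on d7 and 10.02, 10.00 and 9.89 on d3 (difference 0.09, adjusted p = 0.662).

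The other accessory subunits moved by little. Ndufa13, also studied as GRIM-19, a partner of STAT3, differed by 0.11 (0.07 without d3 replicate 3). Ndufb8, often used as a blotting marker of assembled complex I, differed by -0.13 (7.76 on every d7 array and 7.75, 8.04 and 7.87 on d3), and by -0.05 without d3 replicate 3. Ndufb11 differed by -0.12 with overlapping groups, and by -0.02 without d3 replicate 1. Ndufa1, an accessory subunit of the membrane arm, measured 14.81, 14.94, 14.99 and 15.00 on d7 and 14.99, 14.98 and 14.95 on d3. The remaining accessory subunits lay between -0.11 (Ndufb3) and 0.11 (Ndufa6), with none at an unadjusted p under 0.05. Ndufa11, Ndufb4 and Ndufs6 share their probe sets with near copies and Ndufb1 had none of its own symbol, so these were not analysed.

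The 8 Ndufaf genes, which assemble complex I and are not part of it, had 2 higher and 6 lower d7 means (median -0.062). Ndufaf8 measured 8.78, 8.89, 9.05 and 9.04 on d7 and 9.30, 9.05 and 9.06 on d3. The highest d7 and the lowest d3 array were equal at the precision printed. The difference of -0.20 had an adjusted p of 0.662, and was -0.12 without d3 replicate 1. Ndufaf6 and Ndufaf4 differed by -0.17 and -0.11, and both had their highest value on d3 replicate 3. Ndufaf1 differed by 0.04, with 6.50 on d3 replicate 3 and 6.76 to 7.01 elsewhere.

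**Figure D2:**
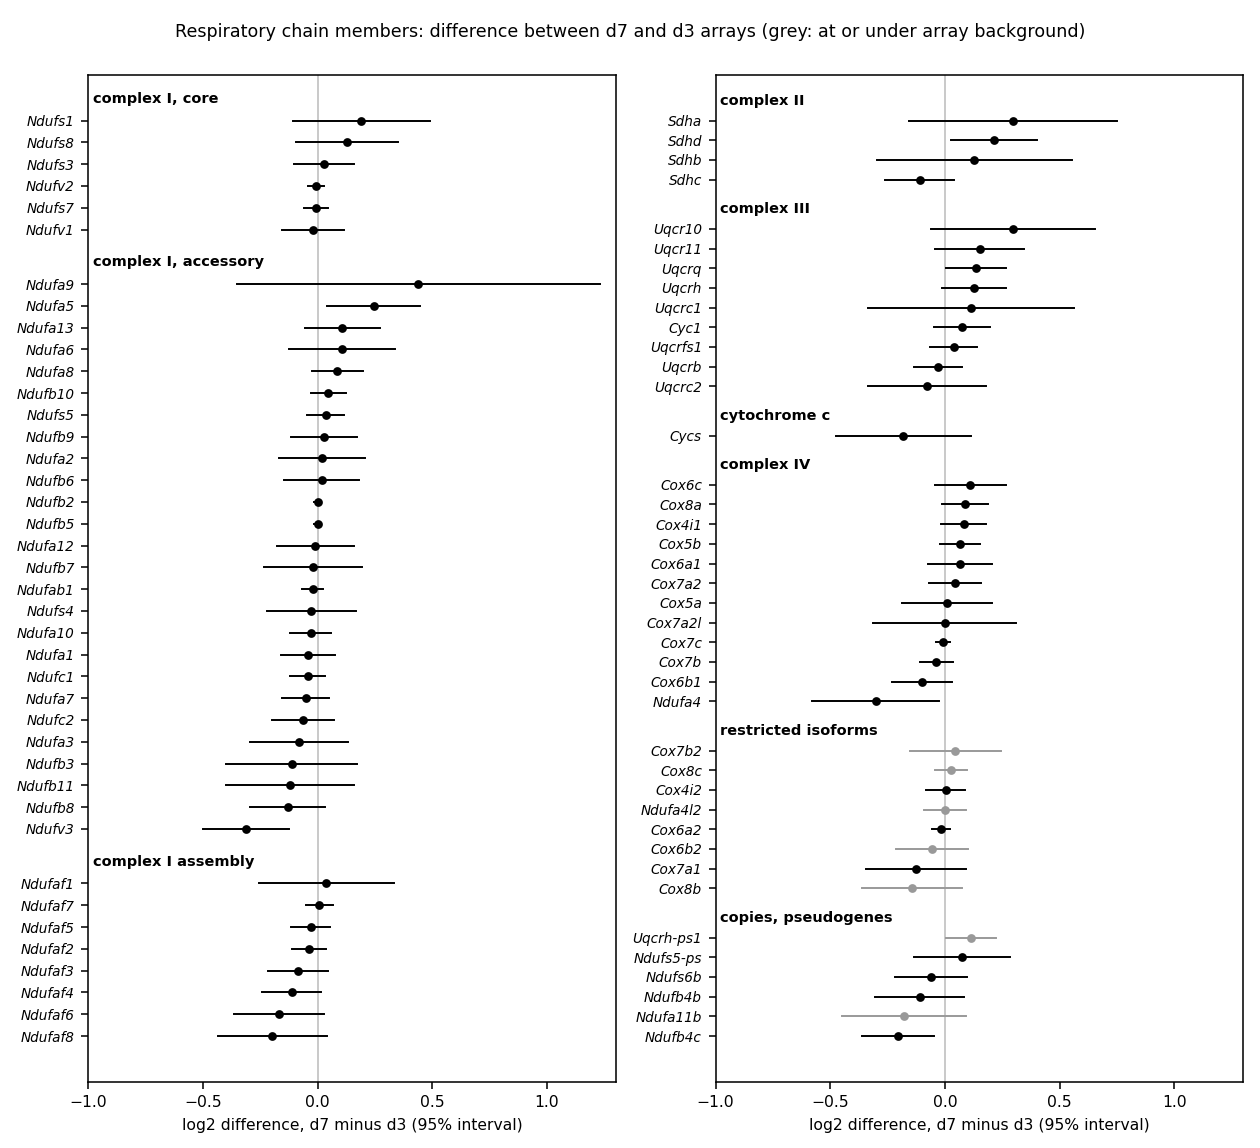
Log2 difference, d7 minus d3 (x axis), of each of the 80 members, listed by role, with points for the estimate and lines for the 95% interval from limma, grey where the mean lies at or under the array background. Estimates stay between -0.31 and 0.44, and Ndufa9 has the widest interval.

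Complex II, succinate dehydrogenase, links the tricarboxylic acid cycle to the chain, and all its 4 subunits are nuclear. Sdha, the flavoprotein that binds succinate, measured 10.32, 10.32, 10.34 and 10.55 on d7 and 10.32, 9.65 and 10.29 on d3. Sdhb, the iron-sulfur subunit, measured 11.38, 11.46, 11.46 and 11.53 on d7 and 11.59, 10.91 and 11.49 on d3. In both, 2 of the 3 d3 arrays lay within or next to the d7 range and d3 replicate 3 lay below it, with differences of 0.30 (95% interval -0.16 to 0.75) and 0.13 (-0.30 to 0.55), or 0.08 and -0.08 without that array.

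The membrane anchors of complex II went opposite ways. Sdhd measured 9.15, 9.28, 9.25 and 9.15 on d7 and 9.10, 8.83 and 9.04 on d3, and its groups did not overlap (means 9.20 ± 0.07, n = 4, and 8.99 ± 0.14, n = 3, SD). Its difference was 0.21 (SE 0.0760, limma unadjusted p = 0.0326, adjusted p = 0.647), and 0.13 without d3 replicate 3. Sdhc measured 6.95, 7.16, 7.16 and 7.12 on d7 and 7.25, 7.21 and 7.16 on d3, with groups that touched (difference -0.11, adjusted p = 0.662). The median difference of the 4 subunits, 0.170, was -0.004 without d3 replicate 3, so the sign of the complex II median rests on that array.

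**Figure D3:**
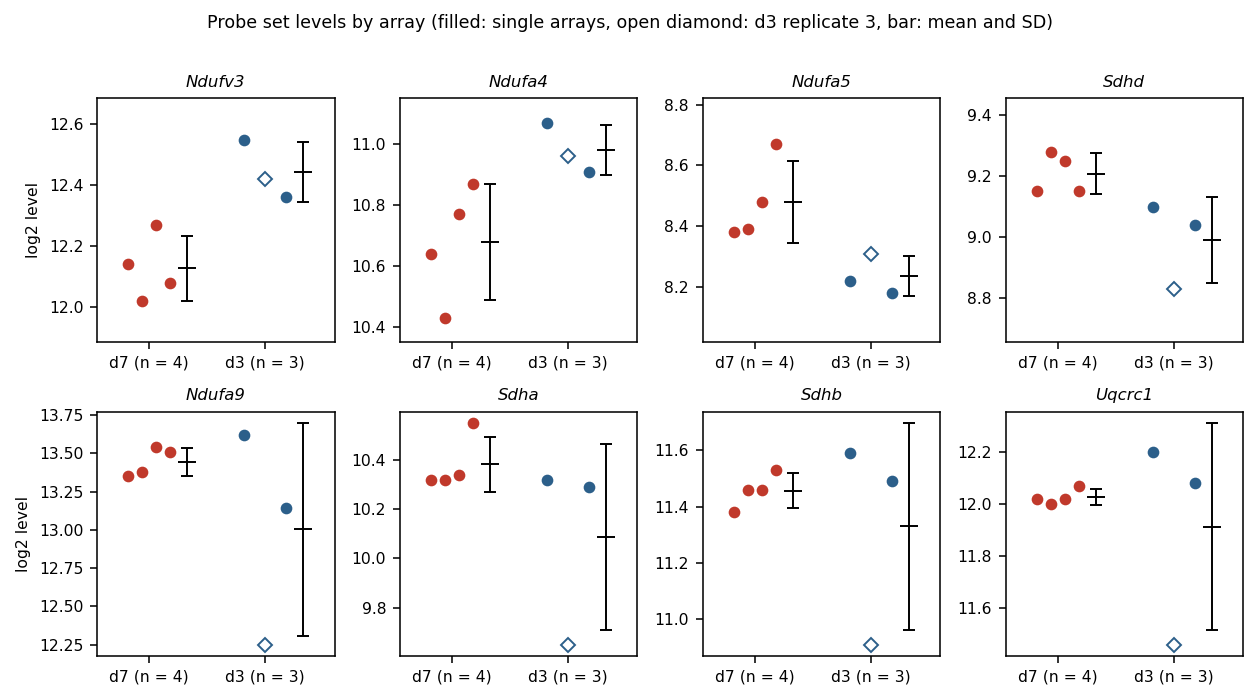
Log2 level (y axis) on each d7 array (red, left) and d3 array (blue, right) for Ndufv3, Ndufa4, Ndufa5, Sdhd, Ndufa9, Sdha, Sdhb and Uqcrc1, with black bars for mean and SD. The open diamond, d3 replicate 3, is the lowest point in Sdhd, Ndufa9, Sdha, Sdhb and Uqcrc1.

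Complex III, the cytochrome bc1 complex, had 7 of 9 subunits with a higher d7 mean and a median difference of 0.114. Uqcr10, a small subunit, measured 8.84, 9.31, 8.89 and 9.12 on d7 and 8.77, 8.89 and 8.56 on d3. Of the d7 arrays, replicates 6 and 8 lay above all d3 arrays and the groups overlapped (difference 0.30, SE 0.144, adjusted p = 0.662). Uqcrq measured 12.50, 12.53, 12.65 and 12.61 on d7 and 12.52, 12.37 and 12.43 on d3, with overlapping groups and a difference of 0.13 (limma unadjusted p = 0.0467, adjusted p = 0.647).

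Uqcrc1, a core protein of complex III, again turned on d3 replicate 3, at 12.02, 12.00, 12.02 and 12.07 on d7 and 12.20, 11.46 and 12.08 on d3. Its difference of 0.11 was -0.11 without that array. Uqcrc2, its partner, was listed at 11.02 on all d7 arrays and at 11.02, 11.35 and 10.92 on d3 (difference -0.08). Cyc1, the cytochrome c1 heme subunit, differed by 0.07, Uqcrfs1, the Rieske iron-sulfur protein, by 0.04, Uqcrh by 0.13, Uqcr11 by 0.15 and Uqcrb by -0.03. The complex III median was 0.050 without d3 replicate 3.

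Cycs, the mobile carrier between complexes III and IV, measured 14.35, 14.70, 14.63 and 14.67 on d7 and 14.97, 14.67 and 14.67 on d3. The groups overlapped, and the difference was -0.18 (95% interval -0.48 to 0.11, adjusted p = 0.662), and -0.08 without d3 replicate 1. A second Cycs probe set of lower mean (12.1 against 14.7) was not used. The Cycs stretch above holds 1 NRF-1 core.

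Complex IV, cytochrome c oxidase, had 12 measured nuclear subunits with a median difference of 0.028. Ndufa4, first described in complex I and now placed in complex IV, stood out among them. It measured 10.64, 10.43, 10.77 and 10.87 on d7 and 11.07, 10.96 and 10.91 on d3. All d7 arrays lay below all d3 arrays (means 10.68 ± 0.19, n = 4, and 10.98 ± 0.08, n = 3, SD), a difference of -0.30 (1.23-fold lower on d7, limma unadjusted p = 0.0367, adjusted p = 0.647).

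The other 11 subunits of complex IV lay between -0.10 and 0.11. Cox4i1, the ubiquitous form of subunit 4, measured 11.88, 11.88, 11.95 and 11.97 on d7 and 11.87, 11.76 and 11.88 on d3 (difference 0.08). Cox7a2, the ubiquitous form of subunit 7a, measured 15.18, 15.27, 15.29 and 15.38 on d7 and 15.26, 15.23 and 15.22 on d3 (difference 0.05, 95% interval -0.07 to 0.16). Cox6c had 6.95 to 7.01 on d7 and 6.95, 6.95 and 6.72 on d3, Cox8a differed by 0.09 and Cox6b1 by -0.10 (-0.05 without d3 replicate 3), and all 3 had overlapping groups. Cox7a2l differed by -0.001, with 11.54 on d3 replicate 3 against 11.02 to 11.25 elsewhere.

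**Figure D4:**
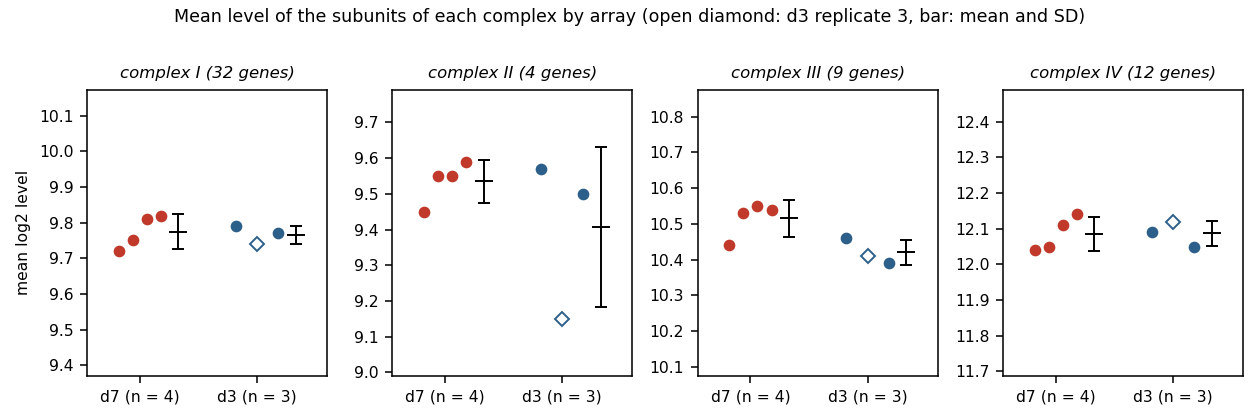
Mean log2 level of the subunits of complexes I, II, III and IV (y axis) on each d7 array (red, left) and d3 array (blue, right), with black bars for mean and SD and an open diamond for d3 replicate 3. The groups overlap in complexes I, II and IV, and in complex III the d7 arrays run from 10.44 to 10.55 and the d3 arrays from 10.39 to 10.46.

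Averaged over subunits, the complexes showed the same picture. The mean level of complex I was 9.72, 9.75, 9.81 and 9.82 on d7 and 9.79, 9.74 and 9.77 on d3. That of complex II was 9.45, 9.55, 9.55 and 9.59 on d7 and 9.57, 9.15 and 9.50 on d3. That of complex III was 10.44, 10.53, 10.55 and 10.54 on d7 and 10.46, 10.41 and 10.39 on d3. Of these 3, complex III came closest to separating, with d7 replicate 5 the only d7 array under a d3 value. Complex IV measured 12.04, 12.05, 12.11 and 12.14 on d7 and 12.09, 12.12 and 12.05 on d3. The differences of these means were 0.012, 0.132, 0.092 and 0.001 for complexes I to IV, and -0.003, 0.004, 0.087 and 0.019 without d3 replicate 3.

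Of the 8 isoforms listed as tissue-restricted or hypoxia-linked, 3 were above the background. Cox7a1, the heart and muscle form of subunit 7a, measured 9.27, 9.48, 9.58 and 9.35 on d7 and 9.66, 9.49 and 9.49 on d3. Its groups overlapped (difference -0.13, adjusted p = 0.662, and -0.07 without d3 replicate 1). Cox6a2, another heart and muscle form, measured 6.66 to 6.72 on d7 and 6.72 on each d3 array, and Cox4i2, the lung and oxygen-sensitive form, 5.75 to 5.90 on d7 and 5.82 on each d3 array. Ndufa4l2, a hypoxia-induced relative of Ndufa4, lay at the background on both days (means near 2.98). Among the 6 copies and pseudogenes, Ndufb4c measured 10.35, 10.30, 10.48 and 10.39 on d7 and 10.68, 10.60 and 10.48 on d3 (difference -0.21, adjusted p = 0.624). Whether the probe set of such a copy also reads its parent gene was not tested.

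Subunits encoded by mitochondrial DNA are no members by the naming rule, and 5 of 13 had a probe set of a single symbol. They were matched by their annotation spelling (COX1, COX2, ND2, ND3 and ND6) after the values had been seen. All 5 had a lower d7 mean, with differences of -0.81 to -0.34, and none passed the test. COX1, the catalytic subunit of complex IV, measured 18.82, 18.79, 18.82 and 18.60 on d7 and 19.11, 18.87 and 19.31 on d3. COX2, which takes electrons from cytochrome c, measured 10.28, 10.58, 10.58 and 10.32 on d7 and 10.63, 10.99 and 10.82 on d3. ND2, in the membrane arm of complex I, measured 13.33, 13.64, 13.64 and 12.98 on d7 and 13.72, 14.55 and 14.36 on d3.

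In COX1, COX2 and ND2 every d7 array lay below every d3 array, as in 9.15% of genes above the background. The differences were -0.34, -0.38 and -0.81 (95% intervals -0.62 to -0.05, -0.67 to -0.08 and -1.47 to -0.15, limma adjusted p = 0.647, 0.643 and 0.647). Without d3 replicate 3 they were -0.45, -0.29 and -0.64. ND3 and ND6 overlapped between the groups. ND6 measured 10.07 to 10.42 on d7 and 9.65, 12.66 and 10.64 on d3, and its difference of -0.70 was 0.14 without d3 replicate 3. ND3 measured 10.41 to 10.78 on d7 and 10.33, 12.68 and 11.12 on d3, and its difference of -0.80 was -0.15 without that array. Of the 30 probe sets that the array assigns to the mitochondrial chromosome, d3 replicate 3 had the highest value in 23. Their median difference between the days was -0.73 over all arrays and -0.27 without that array. The d7 mean was lower in 27 of them, and in 24 without d3 replicate 3. Every d7 array lay below every d3 array in 11, and below d3 replicates 1 and 4 in 12. None of the 30 passed the threshold. The nuclear subunits of the same complexes are described above, and a difference between nuclear and mitochondrial genes was not tested.

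**Figure D5:**
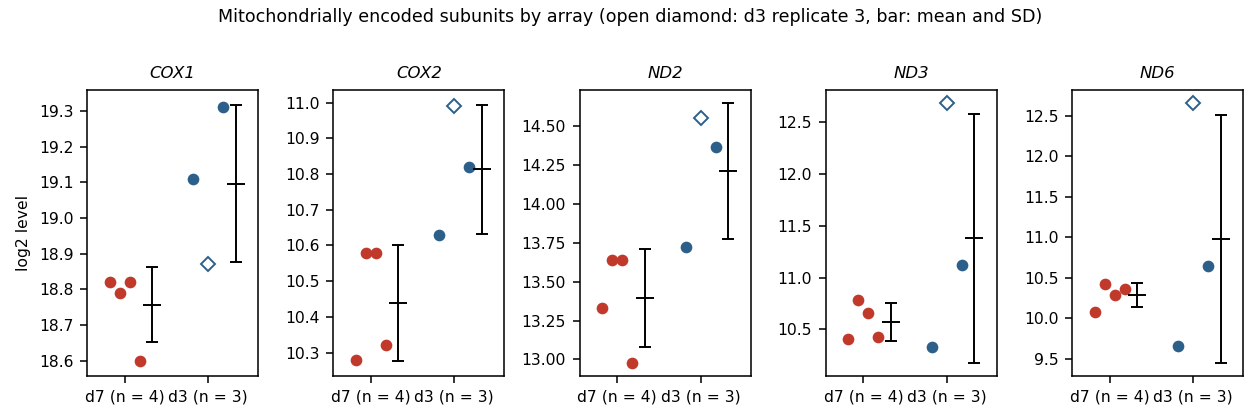
Log2 level (y axis) of COX1, COX2, ND2, ND3 and ND6 on each d7 array (red, left) and d3 array (blue, right), with black bars for mean and SD and an open diamond for d3 replicate 3. The d7 points lie below all d3 points in COX1, COX2 and ND2 and among them in ND3 and ND6.

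Other genes around the chain gave no call in limma either, where 0.117% of all probe sets were called. At an unadjusted p under 0.05, which 19.2% of genes above the background reached, there were 0 of 17 measured genes in ATP synthase, 3 of 24 in the assembly factors of complexes II, III and IV, 2 of 9 in the other complex I assembly factors, 0 of 12 in ubiquinone synthesis, 1 of 13 in the tricarboxylic acid cycle, 1 of 15 among regulators of biogenesis and 3 of 9 among modulators of respiration. ATP synthase, the enzyme that uses the gradient, had 17 of 17 genes measured, 8 higher and 7 lower, and differences of -0.12 (Atp5l) to 0.13 (Atp5pb), or -0.04 for each of these without d3 replicate 3. Of the assembly factors of complexes II, III and IV, 24 of 31 were measured, and Cox20 and Coa4, both needed for complex IV, differed by -0.40 and -0.24 (adjusted p = 0.649 and 0.484), Cox20 by -0.21 without d3 replicate 3. Cox18, which inserts COX2 into the membrane and was picked here after its values were seen, had the smallest adjusted p of that list, 0.310 (difference -0.22, groups not overlapping). Of 9 other complex I assembly factors, Nubpl, which delivers iron-sulfur clusters, differed by 0.18 and Tmem126b by 0.12 (0.05 without d3 replicate 3). Of 12 ubiquinone synthesis genes measured, Coq10a differed by -0.29 and Coq3 by 0.14, or -0.13 and 0.08 without d3 replicate 3.

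The tricarboxylic acid cycle, which supplies NADH and succinate, had 9 of 13 measured genes higher, with a median of 0.084. Cs, citrate synthase, measured 11.41, 11.42, 11.65 and 11.41 on d7 and 11.41, 11.00 and 11.17 on d3 (difference 0.28, adjusted p = 0.647, and 0.18 without d3 replicate 3), and Idh2 differed by 0.22. Among regulators of mitochondrial biogenesis, 7 of 15 measured genes had 1 value on all arrays, Gabpa, Tfam, Yy1 and Ppargc1a among them, and the largest differences were those of Tfb1m (-0.17, and -0.03 without d3 replicate 4) and Mterf3 (-0.09).

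Acod1, which makes itaconate, an inhibitor of succinate dehydrogenase, had the largest difference among genes that modulate respiration in macrophages. It measured 13.01, 13.71, 13.04 and 12.71 on d7 and 14.15, 14.36 and 14.45 on d3. All d7 arrays lay below all d3 arrays (difference -1.20, SE 0.245, 2.30-fold lower on d7). The adjusted p in limma was 0.292 over all probe sets and 0.0208 over only those with 7 different values. That filter uses the same values as the test, and 824 of its 12129 probe sets passed, against 77 of all 65956. No call of Acod1 is drawn from the filtered value. Nos2, whose product nitric oxide blocks complex IV, measured 8.21, 10.41, 9.02 and 8.09 on d7 and 8.21, 7.91 and 7.73 on d3, with d7 replicate 6 far above the rest (difference 0.98, adjusted p = 0.662, and 0.49 without d7 replicate 6). That array was also the highest d7 array for the neutrophil genes S100a8 (12.06, against 9.76 to 10.62 on the other d7 arrays) and S100a9 (10.95, against 8.68 to 9.33), and the part of such cells in the Nos2 value was not tested.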

How the data were processed

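Sorted wound macrophages from 4 d7 and 3 d3 samples were measured on 1 array each. The authors deposited 1 log2 value for each of 72688 probe sets and array, and Affymetrix Expression Console is named in the labels without its version. The study's methods name Genespring GX and dChip for the authors' own comparisons. The normalization between arrays is not given in the sources used here. Deposited values ran from 1.82 to 19.9, and the number of arrays limits the precision. Array controls (6732) were left out, and 65956 probe sets were tested, 30638 of them with a single symbol in the platform annotation, 2176 with several and 33142 with none listed.

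Differences came from a two-sided limma test (limma 3.58.1, R 4.3.3, lmFit then eBayes, without covariates) and were adjusted over all probe sets by Benjamini-Hochberg at a threshold of 0.05, after a check on simulated data. Tables and plots were made with Python 3.11.15, pandas 2.3.3, numpy 2.4.6 and matplotlib 3.10.9. The members, gene lists and naming rule (the whole of complex II and cytochrome c, the 3 largest differences each way in the other groups, the highest levels, restricted isoforms, and 2 genes of each further list) were chosen with earlier results of these data known. Members with an unadjusted p under 0.05, with groups that did not overlap or that stood apart on d3 replicate 3, and Cox18, were named after their values were seen. Array weights, robust eBayes, a mean-variance trend, the methods' t-test, quantile normalization, median centring, level filters, 7 different values, the mean of a gene's probe sets and each array left out were tried as alternatives. Promoters came from RefSeq (GRCm38.p6).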

Additional observations from a re-analysis of the deposited data

Results flagged for a closer look

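Among 63 sets of 4 d7 values examined, 14 held an array set apart by Dixon's test. In these, the gap of 1 array to the nearest other array took up most of the set's range. The d3 sets have 3 arrays and were not examined. Since many probe sets share a value between arrays, a single array that differs by little is set apart in this way, and the gaps below are small in log2 units.

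In complex I, Ndufs1 was high on d7 replicate 8 (7.90, lowest d7 value 7.66), Ndufa8 was high on d7 replicate 8 (10.14, lowest 10.03), Ndufs8 was high on d7 replicate 6 (9.72, lowest 9.65) and Ndufs7 was low on d7 replicate 5 (7.48, highest 7.54). In complex II, Sdha was high on d7 replicate 8 (10.55, lowest 10.32) and Sdhc low on d7 replicate 5 (6.95, highest 7.16). In complex III, Uqcrb was low on d7 replicate 5 (12.61, highest 12.77), as was the mean level of the complex (10.44, highest 10.55).

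Outside the nuclear subunits, COX1 was low on d7 replicate 8 (18.60, highest 18.82), Atp5l was low on d7 replicate 5 (14.83, highest 15.01) and Atp5pb was high on d7 replicate 8 (8.98, lowest 8.84). Cs was high on d7 replicate 7 (11.65, lowest 11.41), Coq3 was high on d7 replicate 7 (7.88, lowest 7.83) and Mterf3 was low on d7 replicate 6 (7.87, highest 7.91).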

How the results depend on the processing

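No paired analysis was possible because the d7 and d3 samples share no replicate number in the labels. The count of members past the threshold was 0 in every alternative except the methods' t-test without adjustment, which gave 4. Over all probe sets the count of 77 was 824 among those with 7 different values, 374 above the array background, 208 at or above the median level, 223 after median centring, 169 after quantile normalization, 13 and 3652 with the methods' t-test with and without adjustment, and 1 (without d7 replicate 8) to 212 (without d3 replicate 1) with each array left out. The smallest adjusted p of a member ranged from 0.112 (7 different values) to 0.702 (without d7 replicate 6), the unadjusted test aside.

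The complex III median was 0.066 with array weights and 0.050 to 0.118 with each array left out, the complex II median -0.004 (without d3 replicate 3) to 0.264, and the complex IV median 0.089 after quantile normalization.

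Some differences changed sign, and the cause was not tested. With each array left out in turn, those that changed sign without d3 replicate 3 ranged from -0.11 to 0.15 (Cox7a2l), -0.10 to 0.16 (Ndufaf1), -0.08 to 0.26 (Sdhb), -0.11 to 0.26 (Uqcrc1), -0.17 to 0.05 (Uqcrc2), -0.04 to 0.24 (Atp5pb) and -1.37 to 0.14 (ND6). Those that changed sign without another array ranged from -0.05 to 0.02 (Ndufv1), -0.02 to 0.0093 (Ndufs7), -0.02 to 0.0020 (Ndufv2), -0.05 to 0.0075 (Uqcrb), -0.02 to 0.03 (Cox4i2) and -0.02 to 0.06 (Ndufs3). Cox7a2l also changed sign without d7 replicate 8 (0.01). With array weights, Cox7a2l was 0.08, Ndufaf1 -0.02 and Uqcrc1 -0.0020. With median centring, Cox6a2 was 0.0028, Cox7a2l 0.02, Ndufs7 0.01, Ndufv1 0.0016 and Ndufv2 0.01, and with quantile normalization Ndufa1 was 0.01 and Ndufs7 0.0087. With 4 against 3 arrays and repeated values, a member whose interval includes 0 is not shown to be equal on both days.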
